A study of Mus musculus with 6 samples.

Results

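The 10 genes described here encode collagens that do not build the banded fibrils and do not belong to collagen IV: Col6a1, Col6a2, Col6a3, Col7a1, Col8a1, Col8a2, Col12a1, Col14a1, Col15a1 and Col18a1. They were chosen by name, as the rows of the RNA-Seq table that carry those symbols, and are 10 of its 19730 rows. The RNA came from mouse mesangial cells in primary culture, which hold up the capillary loops of the kidney's filtering unit and can contract. There were 3 Control and 3 TGF-β1 libraries, and both groups were grown at passages 3 to 6 in medium with 25.5 mM glucose and 20% serum. The TGF-β1-treated cells were given TGF-β1 (transforming growth factor beta 1), a secreted growth factor known for driving fibrosis, at 10 ng/ml for 72 h. What the Control cells received in its place, and the strain, sex and age of the donor mice, were not given in the sources used here. No source says whether the libraries of a group came from separate cultures, so the p-values measure only the spread between these libraries. The comparison asks which of these collagens change at the RNA level when mesangial cells are treated with TGF-β1.

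Collagen VI is assembled from Col6a1, Col6a2 and Col6a3 chains inside the cell and forms beaded microfilaments close to the cell surface. Collagen VIII (Col8a1, Col8a2) is a short-chain collagen that forms lattices, as in the layer under the corneal endothelium and in the walls of blood vessels. Collagen VII (Col7a1) builds the anchoring fibrils of skin. Collagens XII and XIV sit on the surface of collagen I fibrils. Collagens XV and XVIII are basement membrane proteins that carry glycosaminoglycan chains, and the C-terminal end of collagen XVIII is released by proteases as endostatin.

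The start regions of Col6a1, Col6a2, Col8a1 and Col8a2 are printed because the former pair fell and the latter pair rose with TGF-β1. That of Col6a3, which was not called, is not printed and holds 2 SMAD half-sites. The sequences are RefSeq promoter windows (table of build GRCm38.p6), each located by an exact and single match in the mm9 genome that the study used, and all are given 5′ to 3′ on the minus strand except Col8a2, which is on the plus strand. A window holds the 250 bases before the RefSeq start of the gene. Capitals mark matches on either strand to a SMAD half-site (CAGAC or GTCTG), to an AP-1 site (TGANTCA) or to a GC box (GGGCGG or CCGCCC). The Col6a1 window is at chr10:76188790-76189039 and ends inside the transcript named by the Col6a1 row. The Col6a2 window at chr10:76086376-76086625 ends where the transcript of the Col6a2 row begins. The Col8a1 window at chr16:57754851-57755100 ends just before the start of its transcript, and the Col8a2 window at chr4:125963788-125964037 ends on the first base of its transcript.
Col6a1: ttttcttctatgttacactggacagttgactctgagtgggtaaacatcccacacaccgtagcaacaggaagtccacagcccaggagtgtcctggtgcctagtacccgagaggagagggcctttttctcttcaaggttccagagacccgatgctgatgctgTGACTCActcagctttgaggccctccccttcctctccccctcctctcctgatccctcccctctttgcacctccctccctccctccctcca
Col6a2: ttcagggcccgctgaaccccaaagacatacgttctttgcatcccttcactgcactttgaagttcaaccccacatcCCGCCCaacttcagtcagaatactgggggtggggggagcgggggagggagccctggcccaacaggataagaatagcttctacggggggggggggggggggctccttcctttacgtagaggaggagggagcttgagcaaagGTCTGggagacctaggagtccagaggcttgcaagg
Col8a1: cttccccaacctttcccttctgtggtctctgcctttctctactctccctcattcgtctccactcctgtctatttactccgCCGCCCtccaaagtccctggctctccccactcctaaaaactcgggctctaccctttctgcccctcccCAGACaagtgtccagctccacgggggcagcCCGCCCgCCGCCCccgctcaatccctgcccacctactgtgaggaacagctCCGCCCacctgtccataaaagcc
Col8a2: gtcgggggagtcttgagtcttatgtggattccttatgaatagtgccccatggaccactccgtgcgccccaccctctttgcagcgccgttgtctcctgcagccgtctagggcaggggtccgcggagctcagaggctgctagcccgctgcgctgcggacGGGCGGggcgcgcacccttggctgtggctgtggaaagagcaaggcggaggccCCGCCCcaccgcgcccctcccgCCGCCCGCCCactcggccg
The Col6a1 window holds 1 AP-1 match and no SMAD half-site or GC box. The Col6a2 window shown holds 1 SMAD half-site and 1 GC box. Col6a2 has another, overlapping window at chr10:76086150-76086399, which is not printed and holds 3 GC boxes and no SMAD half-site. The Col8a1 window holds 1 SMAD half-site and 4 GC boxes, and the Col8a2 window holds 4 GC boxes, of which the last and the one before it overlap, and no SMAD half-site. In all, 8 of the 10 genes had an entry, with 10 windows. A SMAD half-site was present in 5 of the 10 windows and in 42.2% of the 32851 windows of that table. An AP-1 match was present in 1 of 10 against 6.75%, and a GC box in 6 of 10 against 32.7%. A TATA box (TATAAA or TTTATA) was present in 0 of 10 against 12.4%. These matches describe letters only.

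Values are FPKM, the fragments per kilobase of transcript and per M (mega) mapped fragments, as deposited. The smallest steps between FPKM values gave a depth of 10.1 to 11.01 M fragments in each library, assuming fragments of 200 nt. TGF-β1 replicate 2 stood apart: the higher the GC content of a transcript, the lower its value relative to the group mean (Spearman's rho of -0.386 across 10791 rows, which are not independent), where the other libraries had rho of -0.0884 to 0.320. Of the mesangial and pericyte markers, Acta2, Tagln and Pdgfrb were present. Pdgfrb was at 32.0 to 41.1 FPKM in Control and lower, at 28.4 to 29.9, in TGF-β1 libraries (log2 change -0.34, limma adjusted p = 0.0396). Itga8, Thy1, Des and Rgs5 were at most 0.550 FPKM in any library. Cspg4 was higher with TGF-β1, with means of 0.0735 FPKM in Control and 1.21 FPKM in TGF-β1 libraries (limma adjusted p = 9.51e-04 without a filter on low values). The summed level of the 9 mesangial markers was 1406 to 1705 FPKM in Control and 5286 to 6215 in TGF-β1 libraries, mostly Acta2 and Tagln. The summed epithelial, macrophage and interstitial fibroblast markers were lower in every TGF-β1 library than in every Control library. The 6 epithelial markers in the table summed to 147 to 182 FPKM in Control and 8.03 to 9.64 with TGF-β1, mostly Cdh16 and Cldn2, with Cdh1 and Krt8 at most 0.173 FPKM in any library. Krt18 of that list went the other way, with means of 0.279 FPKM in Control and 1.57 FPKM with TGF-β1. The 5 macrophage markers summed to 87.0 to 114 and 9.03 to 11.3 FPKM, mostly Cd14, with Ptprc and Lyz2 at most 0.0811 FPKM. Of the 3 tested macrophage markers, 2 were called lower and 1 was not called, where 23.6% of all tested rows were called lower. Of the podocyte markers, Synpo was at 11.6 to 12.8 FPKM in Control and 7.34 to 8.47 in TGF-β1 libraries, Wt1 at 5.88 to 9.88 and 3.61 to 4.35 FPKM, Podxl at 2.06 to 2.48 and 0.986 to 1.52 FPKM, and Nphs1 at most at 0.398 FPKM. The 5 interstitial fibroblast markers summed to 5.55 to 6.34 and 1.86 to 2.73 FPKM, and the 5 endothelial markers to 0.361 to 0.468 and 0.299 to 0.822 FPKM. The interstitial fibroblast sum was mostly Dpt, with means of 4.75 FPKM in Control and 1.87 FPKM with TGF-β1. Pdgfra (0.0867 and 0.188 FPKM) and Mfap5 (0.113 and 0.173 FPKM) of that list had higher means with TGF-β1 and were not called. The part of these markers in the collagen changes was not tested. In cultures sequenced in bulk, fewer cells of a type and less RNA per cell cannot be told apart.

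Of the 10 genes, 8 averaged 1 FPKM or more across the 6 libraries and were tested. Differential expression was tested with limma on log2(FPKM + 1) across all 11898 rows above that mean, with Benjamini-Hochberg adjustment, and an adjusted p under 0.05 was called. TGF-β1 upregulated 4 genes (Col7a1, Col8a1, Col8a2 and Col12a1) and downregulated 2 (Col6a1 and Col6a2). Col6a3 and Col18a1 were tested and not called, and Col14a1 and Col15a1 lay under the filter. For all tested rows, 48.1% were called, 24.5% higher and 23.6% lower with TGF-β1. All 6 called collagens changed at least 2-fold on the log2 scale, where 13.9% of all tested rows were called and changed that much. The Control and TGF-β1 libraries did not overlap in 7 of the 8 tested collagens, against 59.4% of all tested rows. The median log2 change was 1.14 for the 8 tested collagens and -0.02 for all tested rows. These counts and the median depend on the filter. Col6a3, Col7a1 and Col8a2 had Control means of 0.521, 0.865 and 0.153 FPKM and passed it only through their TGF-β1 libraries. Col14a1 and Col15a1, which are not in the median, had log2 differences of -0.003 and -0.15. Rescaling the libraries to a common sum over protein-coding rows shifted the median of all rows to -0.19 and the split of calls from 2911 higher and 2810 lower to 2014 higher and 3951 lower. The 6 calls and their directions were the same under that rescaling.

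**Figure D1:**
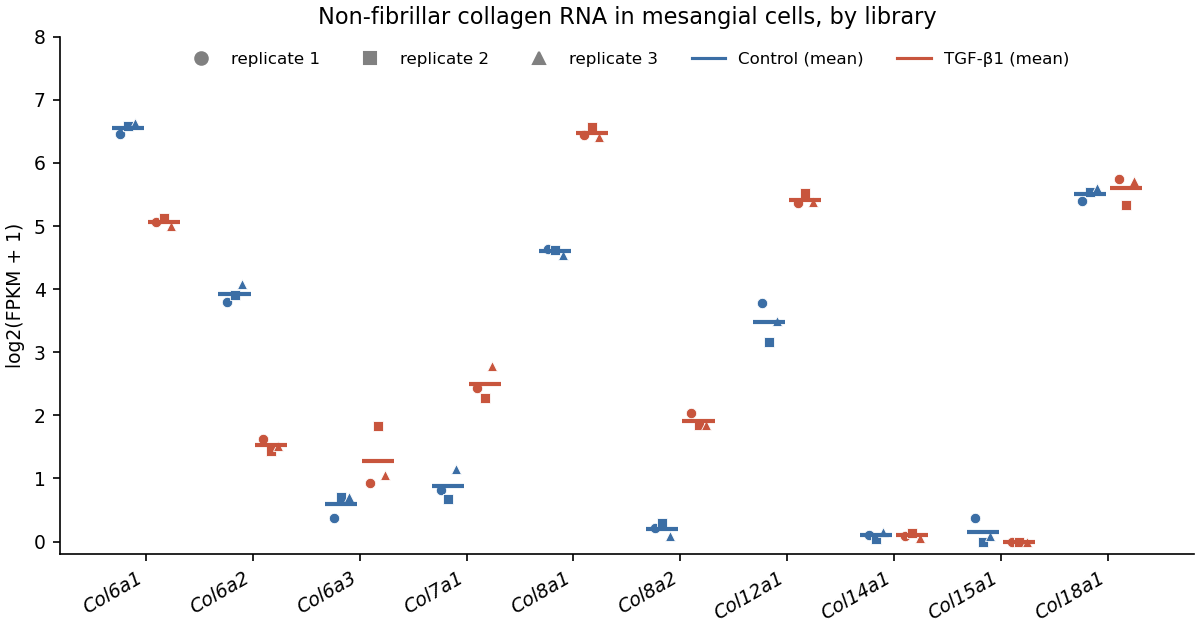
FPKM of the 10 collagens in every library on a log2(FPKM + 1) scale. Blue symbols are Control and red symbols TGF-β1 libraries, the symbol shape gives the replicate number, and bars are group means on that scale. Col6a1 and Col6a2 lie lower in all 3 TGF-β1 libraries, Col7a1, Col8a1, Col8a2 and Col12a1 lie higher, and Col18a1 overlaps.

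Col6a1 was the most abundant of these collagens in Control cells and was lower in all TGF-β1 libraries. It had 86.8, 95.4 and 98.0 FPKM in Control replicates 1 to 3 and 32.4, 33.8 and 31.1 in TGF-β1 replicates 1 to 3. Every treated library was far under every Control library. The group means were 93.4 ± 5.85 and 32.4 ± 1.39 FPKM (SD, n = 3 each), a 2.88-fold decrease. The log2 change was -1.50 (SE 0.0803, limma adjusted p = 4.84e-05). Col6a1 lies on chromosome 10 of mm9, from 76171537 to 76188913 on the minus strand.

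Col6a2 encodes another chain of collagen VI and was also lower in all TGF-β1 libraries. It had 12.9, 14.0 and 16.0 FPKM in the Control libraries and 2.10, 1.72 and 1.86 FPKM in the TGF-β1 libraries. The groups were again far apart, with means of 14.3 ± 1.53 and 1.89 ± 0.193 FPKM (SD, n = 3 each), a 7.55-fold decrease in FPKM. On the log2 scale Col6a2 changed by -2.40 (SE 0.109, limma adjusted p = 2.72e-05). Col6a2 lies beside Col6a1 on the minus strand of chromosome 10, from 76058507 to 76086375, and Col18a1 is on the same strand and chromosome from 76514923 to 76629293. Of these neighbours, Col6a1 and Col6a2 fell and Col18a1 was not called. The epithelial, macrophage and interstitial fibroblast marker sums given above, and the podocyte markers Synpo, Wt1 and Podxl, were also lower in all TGF-β1 libraries. Of all tested rows, 23.6% were called lower with TGF-β1. The part of these markers in the fall of Col6a1 and Col6a2 was not tested.

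Col6a3 encodes the longest collagen VI chain and was scarce in both groups. It had 0.295, 0.639 and 0.630 FPKM in the Control libraries and 0.909, 2.55 and 1.08 in the TGF-β1 libraries. The 3 treated libraries were above the 3 Control libraries, and TGF-β1 replicate 2 was far above the other treated libraries. The group means were 0.521 ± 0.196 and 1.52 ± 0.903 FPKM (SD, n = 3 each). The log2 change was 0.68 (SE 0.266, 95% interval 0.03 to 1.32), with an unadjusted p of 0.0420 and an adjusted p of 0.0790 in limma, so the gene was not called. It was 0.40 (limma adjusted p = 0.112) without TGF-β1 replicate 2, where the mean of the gene fell under the filter. It passed in 3 other settings, with an adjusted p of 0.0391 when replicate 2 was a batch term. The Col6a3 row names a transcript that the annotation types as a processed transcript of 9003 nt, on chromosome 1 from 92663435 to 92740529, and no source says whether the row gives the gene or that transcript.

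The balance of the collagen VI chains differed between the groups. Col6a2 was at 14.9%, 14.7% and 16.3% of the FPKM of Col6a1 in Control libraries and at 6.48%, 5.07% and 6.00% in TGF-β1 libraries. The difference of the log2 ratio was -0.90 (exact permutation test over the libraries, two-sided p = 0.1, adjusted over 5 pairs 0.167). Col6a3 was at 0.340%, 0.670% and 0.643% of Col6a1 in Control libraries and at 2.81%, 7.55% and 3.49% in TGF-β1 libraries. The log2 ratio differed by 2.17, with an exact permutation p of 0.1 (adjusted 0.167). With 3 libraries against 3, an exact p of 0.1 is the smallest this design allows, so neither ratio could pass the threshold although the libraries did not overlap in either.

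Col8a1 encodes the more abundant collagen VIII chain and was the most abundant of the 10 genes after TGF-β1. It had 23.9, 23.6 and 22.2 FPKM in Control libraries and 85.7, 93.5 and 84.5 in TGF-β1 libraries. The replicates were tight in both groups and the treated libraries were all higher, with means of 23.3 ± 0.906 and 87.9 ± 4.88 FPKM (SD, n = 3 each), a 3.78-fold increase. On the log2 scale it gained 1.87 (SE 0.0766, limma adjusted p = 1.98e-05). Col8a1 lies on chromosome 16, from 57624371 to 57754850 on the minus strand, with 1 annotated transcript.

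Col8a2, the other collagen VIII chain, was near 0 in Control cells and at 2.78 FPKM after TGF-β1. It had 0.161, 0.230 and 0.0674 FPKM in Control libraries, which correspond to about 7.3, 10.5 and 3.0 fragments. The TGF-β1 libraries had 3.12, 2.61 and 2.60 FPKM, or about 109 to 141 fragments. The means were 0.153 ± 0.0816 and 2.78 ± 0.30 FPKM (SD, n = 3 each), an 18.2-fold increase of FPKM that rests on few Control fragments. The log2 change was 1.71 (SE 0.130, limma adjusted p = 1.70e-04). With a pseudocount of 0.1 in place of 1 the log2 change was 3.56, so its size depends on the scale while the call did not. Col8a2 lies on the plus strand of chromosome 4, from 125964037 to 125991574, and an unnamed RNA gene overlaps it on the opposite strand.

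Both collagen VIII genes rose, but no change of their ratio could be set. Col8a2 was at 0.672%, 0.974% and 0.303% of the FPKM of Col8a1 in Control libraries and at 3.64%, 2.79% and 3.08% in TGF-β1 libraries. On the log2(FPKM + 1) scale the ratio differed by -0.16 (exact permutation p = 0.3, adjusted 0.375), and with a pseudocount of 0.1 by 1.65 (exact permutation p = 0.1). The sign of the difference therefore depended on the pseudocount, and also on the scaling. With a pseudocount of 1 it was 0.12 with quantile normalization and 0.13 with the GC content and length trend removed.

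Col7a1, the anchoring fibril collagen, was low in Control cells and higher with TGF-β1. It had 0.764, 0.601 and 1.23 FPKM in Control libraries and 4.40, 3.83 and 5.87 FPKM in TGF-β1 libraries. The lowest treated library was above the highest Control library, and replicate 3 was the highest of its group in both. The means were 0.865 ± 0.328 and 4.70 ± 1.05 FPKM (SD, n = 3 each), a 5.43-fold increase. On the log2 scale the rise was 1.61 (SE 0.190, limma adjusted p = 9.12e-04). Col7a1 lies on the plus strand of chromosome 9, from 108855631 to 108886920, with 119 exons in the transcript of its row, and it holds the miRNA gene Mir711 on the same strand.

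Col12a1, the collagen XII gene, was among the middle of the levels in Control cells and close to Col18a1 after TGF-β1. It had 12.7, 7.92 and 10.2 FPKM in Control libraries and 40.1, 44.9 and 40.6 in TGF-β1 libraries. The treated libraries were all higher, and Control replicate 2 was the lowest while TGF-β1 replicate 2 was the highest. The means were 10.3 ± 2.40 and 41.9 ± 2.62 FPKM (SD, n = 3 each), a 4.07-fold increase. The log2 change was 1.95 (SE 0.162, limma adjusted p = 2.31e-04), and 1.74 in replicates 1 and 3 alone (limma adjusted p = 0.00270). The row names a transcript of 1784 nt and 10 exons, on chromosome 9 from 79446798 to 79460777, whereas the longest annotated Col12a1 transcript has 11511 nt. No source says whether the row gives the gene or that transcript.

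Col14a1, the collagen XIV gene and the closest relative of Col12a1 among these genes, was near the detection limit in both groups. It had 0.0769, 0.0334 and 0.109 FPKM in Control libraries and 0.0673, 0.0998 and 0.0444 in TGF-β1 libraries. These values correspond to 2.3 to 7.3 fragments per library, and the groups overlapped fully. No difference was detectable at this depth (log2 difference of -0.003, 95% interval -0.11 to 0.11, limma adjusted p = 0.977 without the filter). At such a level the pseudocount of 1 keeps any log2 difference small, so the interval does not bound the fold change of FPKM. The log2 ratio of Col14a1 to Col12a1 differed by -1.95, with an exact permutation p of 0.1 (adjusted 0.167), and Col14a1 itself was near 0 in both groups.

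Col15a1, the collagen XV gene, was listed at 0.290, 0 and 0.0596 FPKM in Control libraries and at 0 in all 3 TGF-β1 libraries. The Control values correspond to about 15.7 fragments in replicate 1 and 3.1 in replicate 3. An FPKM of exactly 0 may stand for an estimate that failed, so no fold is given. The log2 difference was -0.15 (95% interval -0.39 to 0.09, limma adjusted p = 0.311 without the filter). With a pseudocount of 0.1 in place of 1 it was -0.88 (limma adjusted p = 0.245), so its size depends on the scale.

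Col18a1, which encodes collagen XVIII and so endostatin, ranked behind Col6a1 in Control and, by its mean, behind Col8a1 in TGF-β1 libraries, where its range overlapped that of Col12a1. It had 41.1, 45.4 and 47.4 FPKM in Control libraries and 52.6, 39.2 and 51.5 in TGF-β1 libraries. The groups overlapped because TGF-β1 replicate 2 was lower than every Control library, while the other treated libraries were higher than all of them. The means were 44.7 ± 3.21 and 47.8 ± 7.43 FPKM (SD, n = 3 each). Their log2 difference was 0.09 (SE 0.132, 95% interval -0.23 to 0.41, limma adjusted p = 0.620), and the interval does not reach the size of any of the 6 called changes. Without TGF-β1 replicate 2 it was 0.22 (limma adjusted p = 0.111), and in replicates 1 and 3 alone 0.23 (0.163). With the trend of GC content and transcript length removed from each library it was 0.28 and was called (limma adjusted p = 0.0186). The transcript of the Col18a1 row has a GC content of 60.0%, near those of Col6a2 (59.8%), Col8a2 (59.1%) and Col7a1 (61.6%), and the part of GC content in the low value of TGF-β1 replicate 2 was not tested. Slc19a1 overlaps Col18a1 on the opposite strand, and the strand setting of the FPKM estimate is not stated. The ratio of Col18a1 to Col15a1 differed by 0.24 on the log2(FPKM + 1) scale (exact permutation p = 0.4, adjusted 0.4), and rests on a Col15a1 row near 0.

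**Figure D2:**
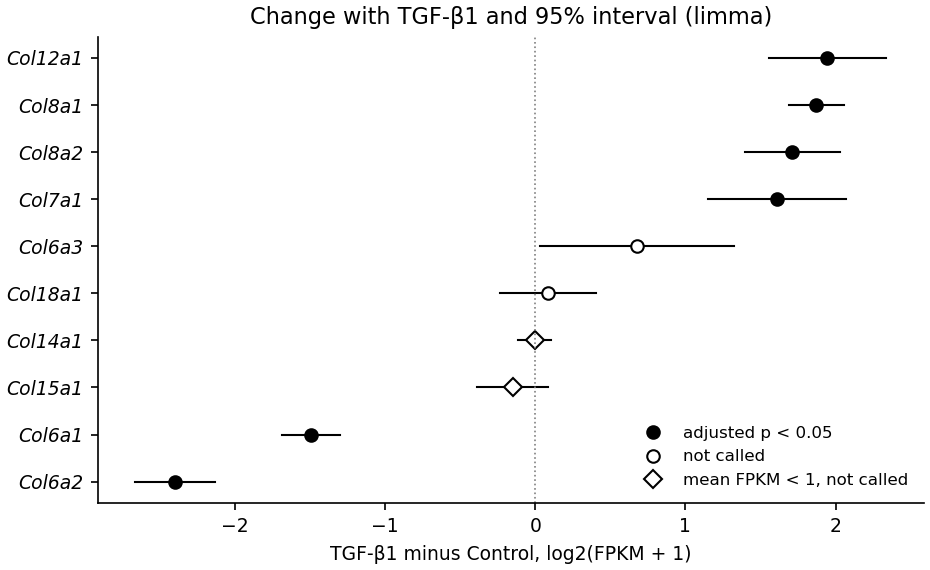
Difference between TGF-β1 and Control on the log2(FPKM + 1) scale with its 95% interval from limma, 3 libraries per group. Filled circles are called, open circles are tested and not called, and diamonds have a mean FPKM under 1. Col12a1, Col8a1, Col8a2 and Col7a1 lie between 1.61 and 1.95, and Col6a1 and Col6a2 at -1.50 and -2.40.

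The order of the levels, which FPKM gives per length, changed at several places. The place of Col12a1 in it carries the limit given above for the short transcript of its row. In Control cells the order was Col6a1, Col18a1, Col8a1, Col6a2 and Col12a1, and the range of each of these over its 3 libraries lay apart from that of its neighbours. Below them, the ranges of Col7a1 and Col6a3 overlapped, and so did those of Col8a2, Col15a1 and Col14a1, each with the next. In TGF-β1-treated cells Col8a1 came first, followed by Col18a1 and Col12a1, whose ranges overlapped, and then by Col6a1, Col7a1 and Col8a2. The ranges of Col6a2 and Col6a3 overlapped, and Col14a1 and Col15a1 were last. Among all rows tested, the level of Col8a1 moved from percentile 68.2 in Control to 89.6 in TGF-β1, that of Col12a1 from 45.5 to 79.7, and that of Col6a2 from 55.3 to 12.2.

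The summed level of the 10 genes was 179, 188 and 196 FPKM in Control replicates 1 to 3 and 221, 222 and 219 FPKM in TGF-β1 replicates 1 to 3. Their make-up differed more than their sum. The 3 collagen VI genes made up 55.9% to 58.6% of that sum in Control and 15.5% to 17.1% in TGF-β1 libraries. Col8a1 made up 11.3% to 13.4% and 38.6% to 42.1%, and Col12a1 4.22% to 7.10% and 18.1% to 20.2%. The share of Col12a1 depends on whether its row gives the gene or a transcript of 1784 nt, which no source says. Col18a1 made up 23.0% to 24.2% in Control and 17.6% to 23.8% in TGF-β1 libraries, with TGF-β1 replicate 2 the lowest. Of the FPKM summed over all 37 collagen rows, the 10 genes held 11.7% to 12.3% in Control and 7.88% to 8.58% with TGF-β1. The groups did not overlap in the sum or in these shares, except for that of Col18a1, and shares within a library are not independent of each other. The sums are of FPKM as deposited. They were not recomputed after rescaling to the protein-coding sum, which shifted the median log2 change of all rows from -0.02 to -0.19.

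**Figure D3:**
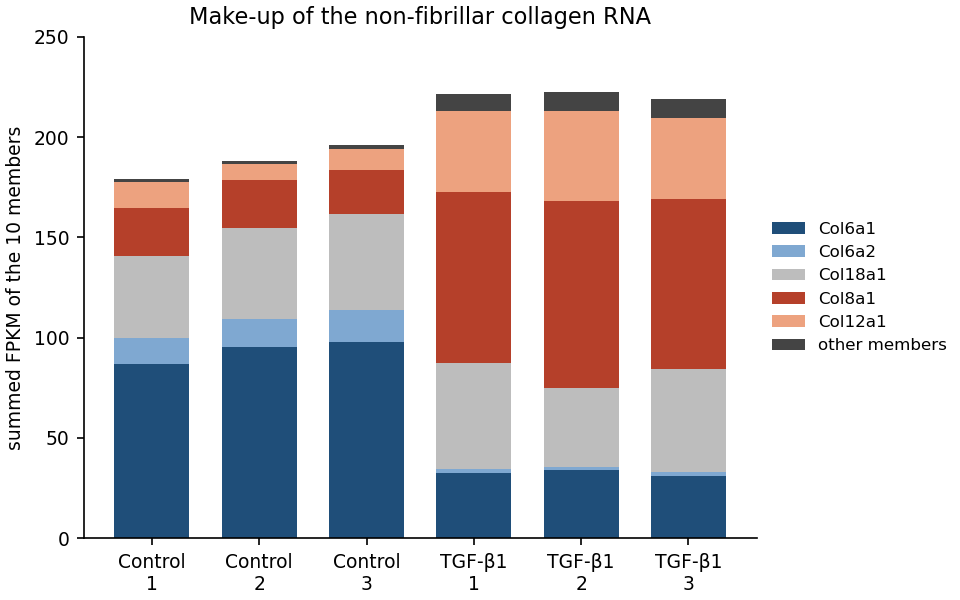
Summed FPKM of the 10 collagens in each library, stacked by gene from 0. Blue parts are Col6a1 and Col6a2, grey is Col18a1, red and orange are Col8a1 and Col12a1, and the dark top holds the other 5 genes. Collagen VI takes 55.9% to 58.6% of the Control bars and 15.5% to 17.1% of the TGF-β1 bars, Col6a3 included.

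The other collagens were counted in the same way. Of 10 other non-fibrillar collagen rows, 2 were tested, and Col16a1 alone was called. Col16a1, a relative of the fibril-surface collagens, was at 26.8, 21.9 and 29.4 FPKM in Control and 48.3, 30.3 and 42.0 in TGF-β1 libraries, a log2 change of 0.59 (limma adjusted p = 0.0440). It lost its call in 8 of 18 other settings (adjusted p up to 0.124), among them all libraries left out singly except TGF-β1 replicate 2. In 7 of the 10 rows the level was under 1 FPKM in every library. Over all tested rows 48.1% were called, 24.5% higher and 23.6% lower with TGF-β1. Of 11 fibrillar collagen genes 9 were tested, 7 rose and 0 fell, with a median log2 change of 1.56. This count and median depend on the filter. Col5a3 and Col1a2 had Control means of 0.761 and 0.726 FPKM and passed it only through their TGF-β1 libraries. Without the filter 7 of the list were called as well. Col5a3 (3.32) and Col1a1 (2.04) had the largest log2(FPKM + 1) changes, though Col5a2 (1.99, SE 0.134) was within its error of Col1a1 (SE 0.0790), and Col1a1 encodes the main chain of collagen I, on whose fibrils collagen XII sits. All 6 collagen IV genes were called: Col4a3 (3.51) and Col4a4 (2.44) rose, and 4 fell, with Col4a6 (-2.21) and Col4a2 (-1.53) the furthest. Col4a2 was at 312 ± 17.8 FPKM in Control and 108 ± 4.24 in TGF-β1 libraries (SD, n = 3 each). The values in brackets are log2 changes, with the SE where stated. Each gene with such a value passed limma's threshold, Col5a2 with an adjusted p of 1.10e-04 and the others with at most 4.54e-05.

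**Figure D4:**
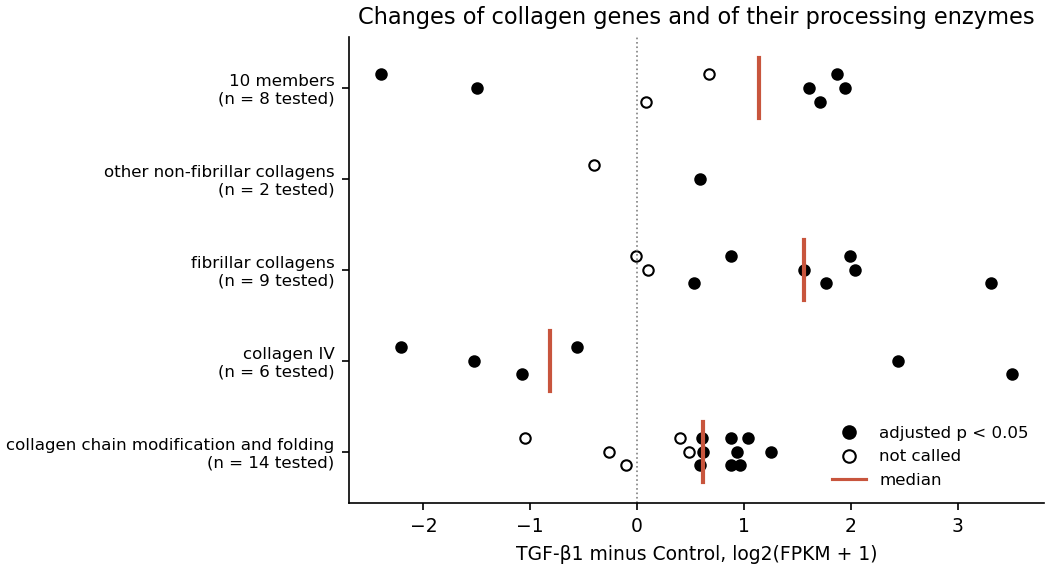
Log2(FPKM + 1) change with TGF-β1 for the tested genes of each group of collagens and for the enzymes and chaperones of collagen chains. Filled points are called, open points are not, and the red line is the median of lists with more than 2 tested genes. The 10 collagens described here have 4 points near 1.6 to 2.0 and 2 under -1.4, the tested fibrillar collagens have no called point below 0, and collagen IV has called points on both sides.

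Of 14 tested genes that modify and fold collagen chains, 9 rose and 0 fell, against 24.5% of all tested rows higher and 23.6% lower, with a median log2 change of 0.61. Of the 5 not called, Leprel1, Leprel2 and Crtap had negative log2 changes (-1.05, -0.26 and -0.10). Plod3 and Ppib had positive ones (0.48 and 0.40). Leprel2 lay just past the threshold (limma adjusted p = 0.0515). Between 9 and 12 genes of the list were called, in either direction, in the other settings. Plod2, a lysyl hydroxylase, was at 47.2 ± 3.33 FPKM in Control and 114 ± 6.71 in TGF-β1 libraries (log2 change 1.25, limma adjusted p = 1.25e-04). P4ha1, a prolyl hydroxylase subunit, was at 66.5 ± 4.68 and 138 ± 7.84 FPKM (log2 change 1.04, limma adjusted p = 2.28e-04).

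Of 6 tested receptors and surface binders of these collagens, 1 rose and 3 fell, with a median of -0.48, against 48.1% of all tested rows called. Itgb1, the beta subunit of the collagen-binding integrins, had 259 ± 9.96 FPKM in Control and 1026 ± 16.4 in TGF-β1 libraries (a log2 rise of 1.98, limma adjusted p = 1.82e-05). Itga1, the alpha subunit of a collagen-binding integrin, had 6.55 ± 0.626 and 1.44 ± 0.321 FPKM (a log2 change of -1.64, limma adjusted p = 2.15e-04). Antxr1, an anthrax toxin receptor, had 31.9 ± 1.14 and 16.0 ± 0.623 FPKM (a log2 change of -0.96, limma adjusted p = 1.66e-04). The integrin subunits Itgb1 and Itga1 thus moved in opposite directions. Itga2 and Cspg4 of this list lay under the filter and were higher with TGF-β1. Itga2 had 0.106 ± 0.0687 and 1.83 ± 0.351 FPKM (limma adjusted p = 5.55e-04 without the filter). Cspg4 had 0.0735 ± 0.0367 and 1.21 ± 0.257 FPKM (limma adjusted p = 9.51e-04 without the filter). Both were named after their values were seen. Without the filter 6 genes of the list were called in place of 4.

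Of 10 tested matrix partners, 5 rose and 4 fell, with a median of 0.65, against 48.1% of all tested rows called. Fbln2, the fibulin of basement membranes and elastic fibres, and Fn1, fibronectin, had log2 changes of 3.53 and 3.03. Dcn, the small proteoglycan decorin, which binds collagen VI and collagen I, had 104 ± 1.92 FPKM in Control and 3.30 ± 0.472 in TGF-β1 libraries (a log2 change of -4.62, limma adjusted p = 2.69e-06). Nid2, a basement membrane linker, had 26.0 ± 3.46 and 1.05 ± 0.183 FPKM (a log2 change of -3.72, limma adjusted p = 1.17e-05). Bgn, biglycan, another small leucine-rich proteoglycan of that list, rose, with 7.53 ± 0.306 and 59.8 ± 4.75 FPKM (a log2 change of 2.83, limma adjusted p = 7.84e-06), and was named after its values were seen. Of 5 tested proteases that can release endostatin or process collagens, 3 rose and 0 fell, with a median of 0.50, a share of calls near the 48.1% of all tested rows. With rescaling to the protein-coding sum 2 of them were called. Bmp1, a procollagen C-proteinase, had a log2 change of 1.52 and Mmp14, a membrane-bound matrix metalloproteinase, one of 1.20, while Col18a1 itself was not called.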

How the data were processed

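RNA-Seq of 3 Control and 3 TGF-β1 libraries was analysed. After a filter on read quality, the authors aligned reads to mm9 with TopHat. The submitters' processing notes name TopHat2 2.0.11, whereas the paper's methods name an earlier version. The deposited FPKM values are the authors' Cufflinks estimates. No scaling between libraries and no strand setting is stated. Cufflinks FPKM are estimates, so genes with several transcripts or overlapping genes carry that limit.

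From the FPKM values, log2(FPKM + 1) was fitted by limma 3.58.1 (R 4.3.3, eBayes with a mean-variance trend, two-sided) over the 11898 rows that averaged 1 FPKM or more, with Benjamini-Hochberg adjustment and a threshold of 0.05. The pseudocount of 1 understates changes of low genes. Genes under the filter came from the same test without it. Ratios of 2 genes were compared with an exact permutation test over libraries. The fit was tested on simulated data. Depth was recovered from low values of single-transcript genes: 99.5% to 99.9% were whole numbers of fragments within 0.05, against 1.5% to 2.6% at other depths. Annotation was GENCODE M1 (mm9), in which 19699 of 19730 rows were found. Python 3.11.15 was used.

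Genes named in the text are the 10 collagens, up to 2 called genes with the largest increase and 2 with the largest decrease in each list, and the defining markers, of which 1 is not reported here. Further genes, such as Bgn, Itga2 and Cspg4, were named after their values were seen. The 10 collagens and all lists were chosen with earlier results of these data known. The 17 planned settings changed the pseudocount, filter, scaling, variance trend, block or batch term, or left libraries out, and 1 was added after seeing the data (removal of the GC content and length trend).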

Additional observations from a re-analysis of the deposited data

How the results depend on the processing

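The 6 calls kept their direction and their call under each of the 17 planned settings and the 1 added after seeing the data (each library's GC content and length trend removed) in which the gene was tested. With a mean FPKM of at least 3 as the filter, 2 genes were called higher in place of 4, because Col7a1 and Col8a2 then lay under the filter. Col6a3 passed with quantile normalization (0.95), with replicate 2 as a batch term (0.68) and with the GC and length trend removed (0.81), and Col18a1 with that trend removed (0.28). Col18a1 had the opposite sign with quantile normalization (-0.038) and with rescaling to the protein-coding sum (-0.11), and Col14a1 with quantile normalization (0.058); leaving out single libraries gave Col14a1 -0.0298 to 0.0208, positive without replicate 3 of Control or of TGF-β1 (0.0146). The log2 ratio of Col8a2 to Col8a1 turned to 1.65 and 0.44 with pseudocounts of 0.1 and 0.5, to 0.12 with quantile normalization and to 0.13 with the GC and length trend removed. Of the other non-fibrillar collagens, 3 were called higher or lower without the filter, 0 with quantile normalization and with the protein-coding sum, and 0 to 1 when single libraries were left out. The cause was not tested for these, apart from the filters.

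Replicate numbers are shared between the groups. Deviations from the group means of libraries with the same number correlated at 0.0921, 0.2317 and 0.0853 across rows. Control replicates 2 and 3 correlated best with their own number, and Control replicate 1 with TGF-β1 replicate 3 (0.1171). The other pairs with different numbers were at -0.1939 to -0.016. These values do not settle whether the numbers mark pairs, and the main fit used no block. With a replicate block 5391 rows were called in place of 5721, and 6 of the 10 collagens, none with a changed call. Depth limits Col14a1, Col15a1 and the Control level of Col8a2, which rest on few fragments.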
